A study of Mus musculus with 4 samples.

Results

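The genes described here are hepcidin, the main controllers of its transcription, and the proteins that carry iron into and out of cells. They were chosen by symbol: Hamp, Hamp2, Tfr2, Tfrc, Scara5, Slc40a1, Trf, Hfe, Bmp6 and Tmprss6. All 10 symbols were found among the 32285 gene rows of the files. RNA of single nuclei was counted in 4 libraries of mouse liver, 2 from mice fasted for 16 to 24 hours and 2 from fed controls. Each library came from a separate nuclear preparation of 50 mg of frozen liver pooled from 8 mice, so a library averages over animals and the spread between libraries is a spread between pools. Strain, sex, age and genotype are not given in the sources used here, nor is whether the preparations of 1 group shared mice. With 2 libraries per group, p-values of fasted against fed within a cell type measure only the spread between those libraries, which may be technical. Comparisons of cell types or lobule positions within libraries have the library as a block. Their p-values rest on the spread left within the same 4 libraries, which may be technical too.

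Hepcidin is a peptide hormone secreted by hepatocytes. It binds ferroportin, the iron exporter encoded by Slc40a1, and causes its degradation, so that macrophages, gut cells and hepatocytes keep their iron. BMP6 from liver endothelial cells drives hepcidin transcription through BMP receptors, the co-receptor hemojuvelin (Hjv) and SMAD proteins, while interleukin-6 acts through STAT3. Transferrin receptor 2 (Tfr2) and Hfe sense the iron load of transferrin on hepatocytes, and the protease matriptase-2 (Tmprss6) lowers the signal by cleaving hemojuvelin. Transferrin (Trf) carries iron in plasma, transferrin receptor 1 (Tfrc) takes it into cells, and Scara5 takes up ferritin. Hamp2 is a mouse duplicate of the hepcidin gene.

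Because the pair of hepcidin genes share most of their sequence, the 150 bases before each RefSeq start site are shown first (RefSeq, GRCm38.p6, minus strand, 5′ to 3′). Capitals mark matches to the BMP-responsive element GGCGCC and to the STAT site TTCTTGGAA, both known from hepcidin promoters. The Hamp stretch spans chr7:30944030-30944179 and the Hamp2 stretch chr7:30924182-30924331.
Hamp: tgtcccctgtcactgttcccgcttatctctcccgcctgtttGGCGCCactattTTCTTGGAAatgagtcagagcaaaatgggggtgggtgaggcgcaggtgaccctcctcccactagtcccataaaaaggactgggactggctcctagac
Hamp2: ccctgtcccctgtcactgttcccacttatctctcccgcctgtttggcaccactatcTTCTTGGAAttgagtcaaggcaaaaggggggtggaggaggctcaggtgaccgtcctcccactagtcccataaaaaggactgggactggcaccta
Both genes kept the STAT site, and only the Hamp stretch held GGCGCC. Counting from 1 at the 5′ end of the Hamp run, the substitution G45A falls inside that element. The aligned stretches differed by 12 substitutions. All 6 gap columns lay at the ends, where the windows are offset from each other, and none lay inside the shared run. With those columns counted, 135 of 153 columns, or 88.2%, were identical. On both strands, GGCGCC occurred in 7.01% and TTCTTGGAA in 0.183% of 32851 promoter windows of this length, and the Hamp window was the 1 window with both. Promoter windows were matched for 6 of the 10 genes, and among those Tfrc also held GGCGCC. A match describes letters only and shows no binding.

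In the GENCODE M21 annotation of GRCm38, Hamp lies at chr7:30942368-30944032 and Hamp2 at chr7:30922372-30924681, both on the minus strand. The Hamp2 stretch above is upstream of 2 of its annotated transcripts and inside an intron of another. The first annotated spliced transcripts of both genes were 92.4% identical, so reads may have been divided between them by the counting, and Hamp2 values are uncertain for that reason. The gene Gm44662 overlaps both on the other strand. Tfr2 lies at chr5:137569840-137587481, Tfrc at chr16:32608920-32632794, Scara5 at chr14:65666403-65764826 and Bmp6 at chr13:38345107-38500302, all on the plus strand. Slc40a1 lies at chr1:45908068-45926523, Trf at chr9:103204001-103230444, Hfe at chr13:23702034-23710854 and Tmprss6 at chr15:78439667-78468634, all on the minus strand. Gm20425 overlaps Trf on the same strand, and Txndc5 and 4930579J19Rik overlap Bmp6 on the other strand.

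The libraries held 8078755 to 30955600 unique molecules (UMIs) over 5396 to 11770 barcodes, and fed replicate 2 was the shallowest. After filters, 18849 hepatocyte nuclei, 5411 endothelial, 1965 Kupffer cell or macrophage, 1783 stellate, 511 cholangiocyte and 420 B or plasma cell nuclei entered the comparisons, with at least 20 nuclei of each type in every library. Most clusters of hepatocytes came from 1 library each. Pairs of libraries shared 12 to 42 barcodes. Fed replicate 1 stood apart by its acute phase genes: the summed hepatocyte level of 20 such genes was 4676 CPM there (CPM scales a gene's UMIs to the total of the nuclei summed), against 719 to 1660 CPM in the other 3 libraries, and the hepatocyte cluster led by Saa2 and Saa1 came to 99.5% from it. The summed level of 14 immediate early genes ranged from 67.4 to 202 CPM in hepatocytes.

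Levels below are CPM of the summed UMIs of a cell type in a library, and values of 4 libraries are in the order fasted replicates 1 and 2, fed replicates 1 and 2. CPM values are compared between samples of 1 gene, not between genes. Hepatocyte transcripts were found in the other nuclei in large amounts, and whether they came from free RNA, remaining doublets or mixed nuclei was not tested. The median level of 10 hepatocyte marker genes was 43.2% to 67.9% of the hepatocyte level in endothelial nuclei, 47.0% to 91.5% in Kupffer cells and macrophages, 30.8% to 70.7% in stellate cells, 40.9% to 77.6% in cholangiocytes and 61.2% to 90.2% in B and plasma cells. A level at or below those shares is read here as background.

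Bmp6, the endothelial signal that raises hepcidin, was an endothelial transcript in these livers. Its level in endothelial nuclei was 524, 632, 369 and 299 CPM, and in hepatocytes 1.28, 1.29, 1.72 and 3.10 CPM. Every endothelial value lay above every value of the other 5 types compared, and the endothelial mean was 456 ± 151 CPM (SD, n = 4). Against hepatocytes the difference was 7.98 on the log2 scale (SE 0.40, edgeR adjusted p = 5.64e-14). After each nucleus was thinned to 600 UMIs, 25.2%, 29.6%, 17.6% and 13.1% of endothelial nuclei had a Bmp6 UMI, against 0.109% to 0.368% of hepatocytes (33.5%, 41.6%, 23.9% and 19.0% of endothelial nuclei before thinning). The hepatocyte level was 0.204% to 1.04% of the endothelial one, close to the median of 10 endothelial markers in hepatocytes, 0.0674% to 1.30%.

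Cholangiocytes, the bile duct cells, came second for Bmp6 among the 6 types with 70.0, 177, 125 and 57.3 CPM, a mean of 107 ± 54.9 (SD, n = 4), and their range did not overlap that of the other 5 types compared. Their difference from hepatocytes was 5.79 on the log2 scale (SE 0.48, edgeR adjusted p = 1.72e-09). This level was 13.4%, 28.0%, 33.8% and 19.2% of the endothelial level of the same library, while the median endothelial marker stood at 2.90%, 3.85%, 3.43% and 0% there and the highest of the 10 at 12.1%, 12.7%, 7.73% and 2.96%. In the other types the Bmp6 level followed the endothelial markers more closely: in Kupffer cells it was 6.04%, 4.41%, 9.97% and 0% of the endothelial level beside marker medians of 3.67%, 3.37%, 6.60% and 1.46%. Stellate cells had 5.06%, 2.95%, 3.13% and 15.9% beside 5.93%, 4.48%, 6.09% and 14.7%. Bmp6 was also called higher than in hepatocytes in Kupffer cells (3.92, SE 0.47, edgeR adjusted p = 4.72e-07) and stellate cells (3.59, SE 0.49, 2.58e-06), at shares near those of the endothelial markers. Fed replicate 2 gave a single Bmp6 count in its 22 cholangiocyte nuclei, so its value there rests on very few reads. The higher Bmp6 of B and plasma cells than of hepatocytes (3.83 log2, SE 0.85, edgeR adjusted p = 0.0029) was lost without fasted replicate 1 (adjusted p = 0.111).

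**Figure D1:**
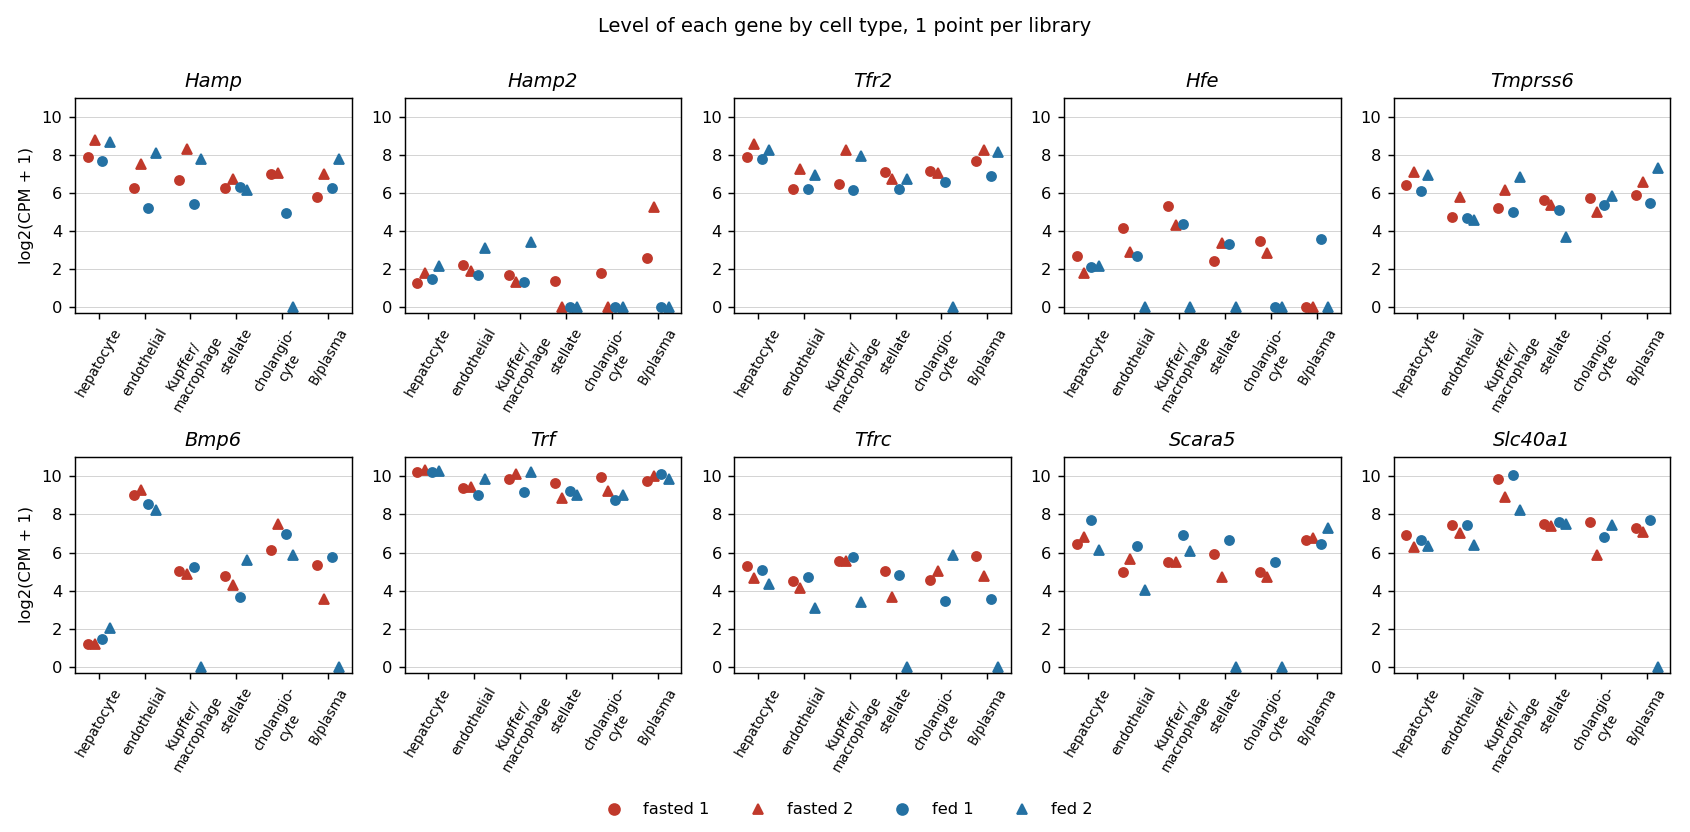
Level of each gene as log2(CPM + 1) on the vertical axis in 6 cell types, 1 point per library (red fasted, blue fed; circles replicate 1, triangles replicate 2). Bmp6 is highest in all 4 endothelial libraries (299 to 632 CPM) and Slc40a1 in all 4 Kupffer cell or macrophage libraries (297 to 1083 CPM), while the hepatocyte points of Trf lie close together (1176 to 1269 CPM).

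Slc40a1, ferroportin, was highest in Kupffer cells and macrophages, which recycle iron from red cells. Its level there was 930, 480, 1083 and 297 CPM, above every value of the other 5 types compared, with a mean of 697 ± 370 (SD, n = 4). Both replicate 1 libraries were higher than both replicate 2 libraries, and fed replicate 2 was lowest. Against hepatocytes (121, 77.7, 98.6 and 79.2 CPM) the difference was 2.62 on the log2 scale (SE 0.23, edgeR adjusted p = 2.47e-11). With 600 UMIs per nucleus, 41.3%, 28.5%, 46.0% and 20.5% of Kupffer cells and macrophages had a Slc40a1 UMI, against 4.77% to 6.80% of hepatocytes (30.7% to 53.8% and 12.2% to 30.3% before thinning).

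Hepatocytes had their own low Slc40a1 level. It was 9.10% to 26.7% of the Kupffer level, while the median of 10 Kupffer markers in hepatocytes was 0.122% to 1.19%. Stellate cells came second with 181, 170, 192 and 178 CPM, a narrow range above all 4 hepatocyte values. Their difference from hepatocytes was 0.79 (SE 0.24, edgeR adjusted p = 0.0089), lost without fasted replicate 2 (adjusted p = 0.0756). The endothelial difference of 0.46 did not pass (adjusted p = 0.0973), but passed with the RLE scaling (0.0204), with DESeq2 (0.0465) and without fed replicate 2 (0.0146).

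Hamp, the main hepcidin gene, was highest in hepatocytes. It stood at 236, 434, 203 and 407 CPM there, with a mean of 320 ± 117 (SD, n = 4), and among the 6 types the hepatocyte value was the highest of its own library in all 4. Kupffer cells had 103, 311, 41.4 and 220 CPM and endothelial nuclei 74.5, 183, 36.6 and 276 CPM. These levels were 20.4% to 71.7% and 18.1% to 67.8% of the hepatocyte level of the same library, and at or below the median hepatocyte marker in every library of both types. Hamp was lower than in hepatocytes by edgeR in each of the other types, with log2 differences from -1.32 in Kupffer cells to -1.81 in cholangiocytes and the lowest in B and plasma cells, and the difference in B and plasma cells was lost without fasted replicate 1 (adjusted p = 0.0789). After thinning to 600 UMIs, 10.2% to 17.3% of hepatocyte nuclei had a Hamp UMI (27.8% to 34.0% before), against 2.23% to 7.14% of endothelial nuclei. Hamp2 gave 24 to 49 counts per library in hepatocytes (1.38, 2.53, 1.84 and 3.54 CPM), too few to pass the count filter of the cell type comparison. It was not highest there: endothelial nuclei had 3.59, 2.77, 2.22 and 7.66 CPM on 1 to 8 counts, and B and plasma cells of fasted replicate 2 had 37.2 CPM on 7 counts (95% counting interval 14.9 to 76.6) and 0 to 1 counts in the other libraries.

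Tfr2, Trf, Tmprss6 and Scara5 also had their highest mean of the 6 types in hepatocytes, with B and plasma cells second. B and plasma cells exceeded hepatocytes for Scara5 in fasted replicate 1 (99.0 against 84.7 CPM) and fed replicate 2 (156 against 70.0). They did so for Tmprss6 in fed replicate 2 (156 against 121 CPM). Both values of that library rest on 5 counts. The Tfr2 mean was 287 ± 73.1 CPM in hepatocytes (SD, n = 4), that of Trf 1212 ± 43.8, that of Tmprss6 102 ± 31.4 and that of Scara5 120 ± 63.7. Trf was the steadiest of them: among the 6 types its hepatocyte value was the highest of its library in all 4, although the Kupffer value of fed replicate 2, at 1177 CPM, reached the lowest hepatocyte value of 1176. Tfr2, Trf, Tmprss6 and Scara5 were lower by edgeR in endothelial, Kupffer, stellate and cholangiocyte nuclei, and none of the 4 passed in B and plasma cells, where Tfr2 (adjusted p = 0.0190) and Trf (0.00157) did without the count filter. Their shares of the hepatocyte level in those types overlapped the hepatocyte marker shares, so their presence outside hepatocytes cannot be told apart from that background. The lower Trf of Kupffer cells (a log2 difference of -0.60, adjusted p = 0.022) was lost with RLE scaling (0.0863), with DESeq2 (0.135), without fasted replicate 1 (0.0724) and without fed replicate 1 (0.340).

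Hfe and Tfrc had another order. Hfe, the class I-like partner of the transferrin receptors, was highest in Kupffer cells and macrophages with 38.2, 19.1, 19.9 and 0 CPM, against 5.56, 2.48, 3.32 and 3.54 in hepatocytes. The 0 in fed replicate 2 comes from 88 nuclei and allows up to 28.7 CPM by counting error. The difference from hepatocytes was 2.37 on the log2 scale (SE 0.45, edgeR adjusted p = 4.25e-05), and that of endothelial nuclei 1.09 (SE 0.45, adjusted p = 0.0415). The endothelial call was lost in DESeq2 (0.0647) and at the lower clustering resolution (0.0501). Without fed replicate 2 the differences were 2.54 and 1.23. Hfe fell under the count filter when any other library was left out, so those runs could not check either call. Tfrc, the general iron uptake receptor, showed little separation: Kupffer cells had 45.8, 45.5, 53.7 and 9.57 CPM and hepatocytes 38.3, 24.1, 33.2 and 19.6. Its single call was a lower level in endothelial nuclei (-0.72 log2, SE 0.26, adjusted p = 0.022), lost in DESeq2 (0.0597) and without fasted replicate 1 (0.193).

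Counted by type, 3 of the 9 genes tested were higher and 5 lower in Kupffer cells than in hepatocytes, where 37.2% of all 9909 genes passed, 19.4% as higher and 17.8% as lower. In endothelial nuclei 2 were higher and 6 lower (50.8% of all genes, 26.1% higher and 24.7% lower), and in stellate cells 2 and 5 (39.6%, 21.2% and 18.5%). In cholangiocytes 1 was higher and 5 lower (29.3%, 15% and 14.2%), and in B and plasma cells 1 and 1 (15.2%, 8.48% and 6.76%). The median of all genes lay between -0.18 and -0.02 in these fits and between 0.03 and 0.12 with RLE scaling, which changed the calls of Trf in Kupffer cells and Slc40a1 in endothelial nuclei given above and no other among the 9 genes.

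**Figure D2:**
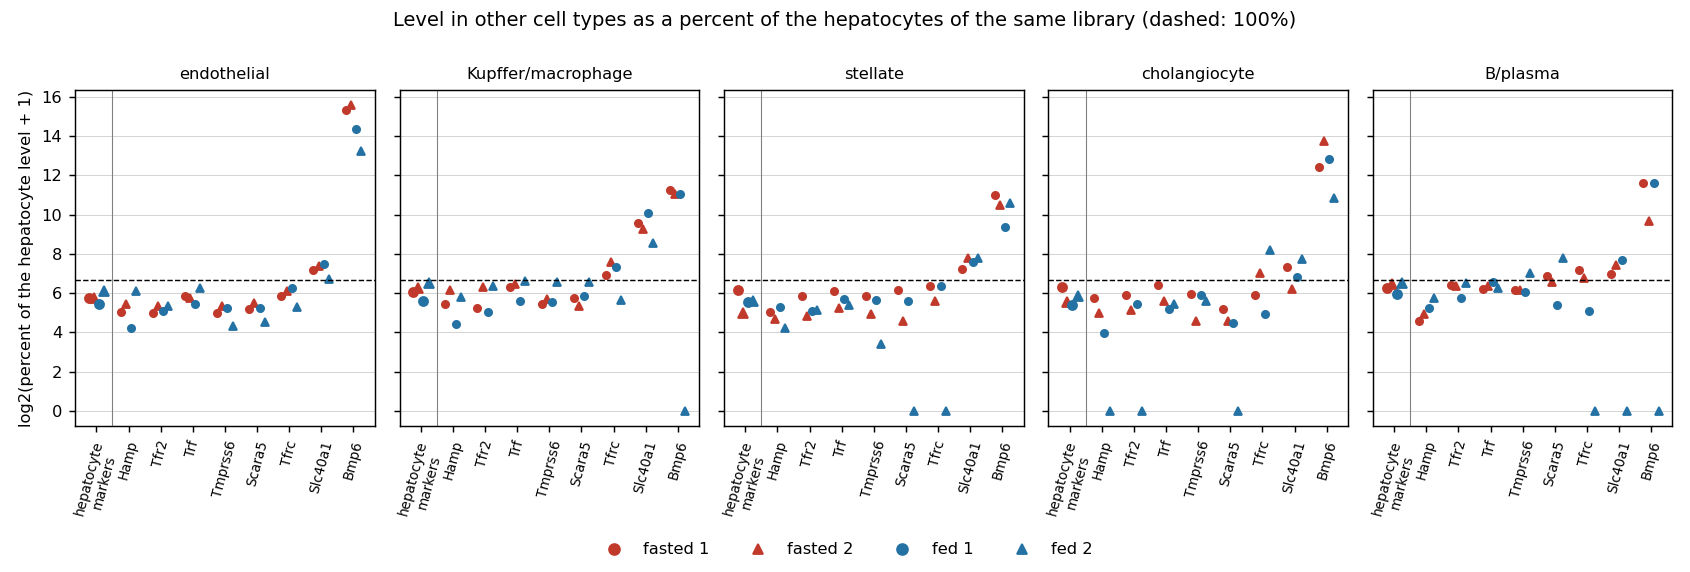
Level in 5 other cell types as a percent of the hepatocyte level of the same library, plotted as log2(percent + 1), with the median of 10 hepatocyte markers as the measure of this background and a dashed line at 100%. Hamp stays under the marker median in all 20 pairs of cell type and library, whereas Bmp6 in endothelial nuclei and Slc40a1 in Kupffer cells lie far above 100%.

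Other genes of the route were counted by cell type in the same way. Of 27 genes of hepcidin signalling (BMP, SMAD and cytokine route), 25 were tested. In endothelial nuclei 9 of them were higher and 10 lower than in hepatocytes, in stellate cells 10 and 6, in cholangiocytes 5 and 6, in Kupffer cells 4 and 8 and in B and plasma cells 1 and 4. In the same order of types, 50.8%, 39.6%, 29.3%, 37.2% and 15.2% of all genes passed. Bmp2, a second endothelial ligand of the route, was higher by 7.21 (SE 0.36, edgeR adjusted p = 2.39e-17) in endothelial nuclei. Smad6, an inhibitor induced by BMP signalling, was higher there by 4.27 (SE 0.33, edgeR adjusted p = 1.59e-10). Both were also called higher in stellate cells (4.35 and 3.11), Kupffer cells (3.58 and 2.30) and cholangiocytes (2.42 and 2.28). Bmp2 was called in B and plasma cells too (3.82). Whether those calls came from endothelial RNA in these nuclei was not tested. Hjv, the hemojuvelin co-receptor, was lower in B and plasma cells by a log2 difference of -2.24 (edgeR adjusted p = 0.0151). It is named for this type because it was among the 4 largest changes there, and its values in the other types are not given here.

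Among 17 tested genes of iron and heme transport, 7 were higher and 6 lower in endothelial nuclei, and 3 and 3 in Kupffer cells. Of all genes 50.8% and 37.2% passed in these types. Heph, a ferroxidase that works with ferroportin, was higher by 6.42 in endothelial nuclei (edgeR adjusted p = 9.13e-14) and by 6.37 in stellate cells (7.44e-13). Cd163, the macrophage receptor for haptoglobin-bound hemoglobin, was higher by 8.55 in Kupffer cells (2.02e-19), and Hmox1, which breaks heme down, by 3.67 (3.33e-06). Smaller Cd163 calls were found in B and plasma cells (3.92), endothelial nuclei (3.26), cholangiocytes (3.20) and stellate cells (2.48). Whether those came from Kupffer cell RNA in these nuclei was not tested. Of 9 tested genes of heme synthesis, 3 to 5 were lower in each type and 0 higher. By type, 6.76% to 24.7% of all genes were lower and 8.48% to 26.1% higher. The median log2 difference of the heme genes was -0.55 in endothelial nuclei, beside -0.02 for all genes. For iron storage and iron regulatory proteins, 3 of 11 were higher and 0 lower in Kupffer cells, where 37.2% of all genes passed. In endothelial nuclei, where 50.8% passed, they were 2 and 2.

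Fasting against feeding was compared next in hepatocytes, to ask whether food withdrawal moved hepcidin or the iron genes. None of the 10 genes passed in edgeR or in DESeq2, and 0 of 10 had an unadjusted p under 0.05 in edgeR. Over all 13992 genes 0.00715% passed in edgeR and 1.16% in DESeq2, so the design called very few genes of any kind. In simulated data for this comparison, 0% of genes changed by 1 on the log2 scale were recovered, 15.6% of those changed by 2 and 69.5% of those changed by 3.

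Hamp differed by 0.09 on the log2 scale, fasted minus fed (SE 0.51, 95% interval -1.14 to 1.32). The spread within each group was wider than the gap between them: replicate 2 was 1.84 times replicate 1 in fasted and 2.01 times in fed libraries. Tfr2 behaved in the same way at 239, 381, 221 and 309 CPM, with a difference of 0.19 (SE 0.40, interval -0.78 to 1.15). Tmprss6, at 85.3, 135, 66.7 and 121 CPM, differed by 0.18 (SE 0.45). For Hamp, Hamp2, Tfr2, Tmprss6 and Trf both replicate 2 libraries lay above both replicate 1 libraries, an order that 19.9% of all genes had. Tfrc and Slc40a1 had the opposite order, which 29.6% of genes had: replicate 2 was 0.63 and 0.59 times replicate 1 for Tfrc, and 0.64 and 0.80 times for Slc40a1.

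Trf hardly varied, at 1176, 1269, 1180 and 1224 CPM, and differed by -0.01 (SE 0.30, interval -0.75 to 0.73). Slc40a1 differed by 0.12 (SE 0.33), Tfrc by 0.21 (SE 0.40), Hfe by 0.18 (SE 0.60) and Hamp2 by -0.48 (SE 0.70). Scara5 stood at 84.7, 112, 211 and 70.0 CPM, so that fed replicate 1 was highest and fed replicate 2 lowest. Its difference was -0.51 (SE 0.51, interval -1.76 to 0.73), and without fed replicate 1 it was 0.39. Bmp6 was the 1 gene whose groups did not overlap in hepatocytes (1.28 and 1.29 against 1.72 and 3.10 CPM), as were 36.3% of all genes, and at those levels it is near the share of endothelial markers. Its difference was -0.92 (SE 0.66, interval -2.52 to 0.67, edgeR adjusted p = 0.884).

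**Figure D3:**
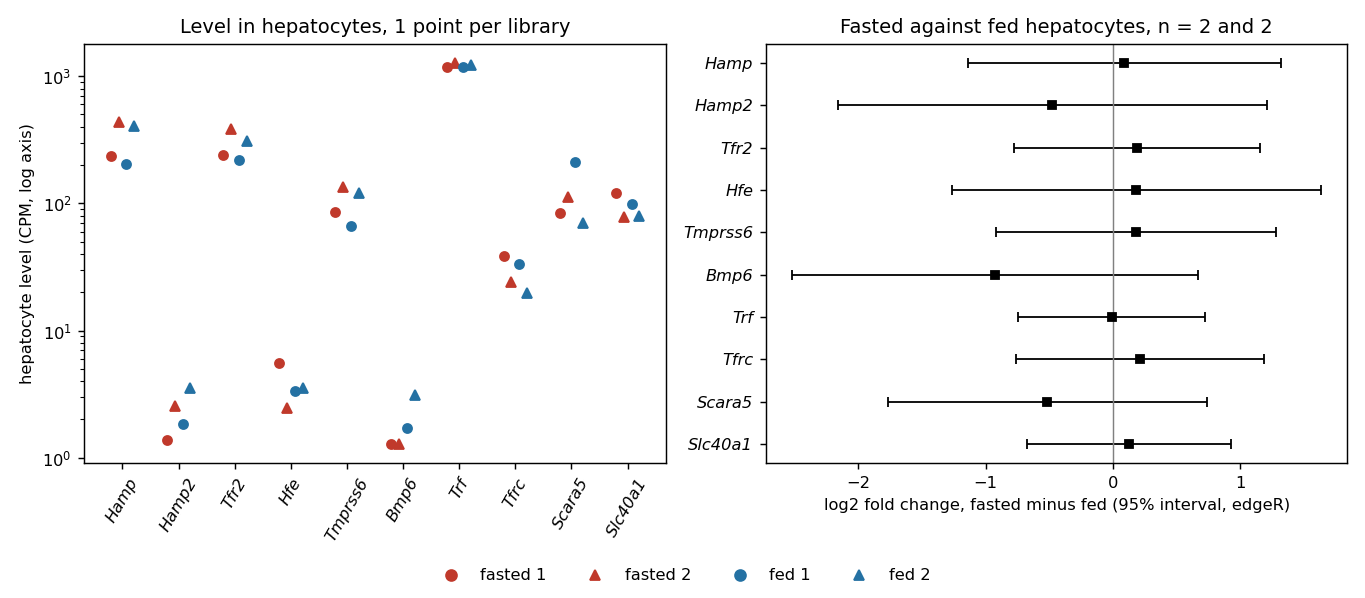
Hepatocyte level in CPM on a log axis for each library, and the fasted minus fed log2 difference with its 95% interval for the 10 genes. All 10 intervals include 0, and the points of a group are as far apart as the groups for Hamp (203 to 434 CPM).

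Endothelial Bmp6, at 524 and 632 CPM, was higher in both fasted libraries than in the fed ones, which had 369 and 299 CPM. The groups did not overlap, as for 31.5% of all genes in endothelial nuclei, and the difference was 0.76 on the log2 scale (SE 0.35, interval -0.01 to 1.53, edgeR adjusted p = 0.999). It lay between 0.64 and 0.90 when each library was left out in turn. Its difference from the change in hepatocytes was 1.68 (SE 0.63, adjusted p = 0.709). In this test of a difference between cell types 0 of 9 genes passed in any type; the shares of all genes were 0.336% in endothelial, 0.0373% in Kupffer, 0.0466% in stellate, 0.0187% in cholangiocyte and 0.00933% in B and plasma cell nuclei. Among the wider iron lists Hp, haptoglobin, passed it in cholangiocytes (3.28, SE 0.62, adjusted p = 0.0269). Hepatocyte markers stood at 40.9% to 77.6% of the hepatocyte level in those nuclei, and fed replicate 2 had 22 of them. The part of that background in the Hp call was not tested. In Kupffer cells Slc40a1 differed by 0.03 (SE 0.58) between fasted and fed.

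Outside hepatocytes 0 genes of the 10 passed in any type, in edgeR or in DESeq2, with 8 tested in endothelial nuclei (7 in DESeq2), 9 in Kupffer cells, 8 in stellate cells, 5 in cholangiocytes and 6 in B and plasma cells. The shares of all genes that passed in edgeR were 0.0294%, 0.0244%, 0.0396%, 0.0702% and 0%, and in DESeq2 0.176%, 0.0978%, 0.0924%, 0.0468% and 0.149%. At an unadjusted p under 0.05 stood Scara5 in Kupffer cells (-1.15, SE 0.47, edgeR adjusted p = 1.00) and Hamp in cholangiocytes (2.33, SE 0.77, adjusted p = 0.582). Without fed replicate 2, Hamp passed in endothelial nuclei (adjusted p = 0.0226), at levels within the hepatocyte background of those nuclei.

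None of the genes in the wider lists passed between fasted and fed hepatocytes in edgeR either. In hepcidin signalling 7 of 26 lay above and 19 below 0, with a median of -0.25 beside -0.01 for all genes. Il6ra, the interleukin-6 receptor, had 519, 674, 258 and 268 CPM (1.15, SE 0.32, adjusted p = 0.566), and Id2, a BMP target, 46.4, 31.7, 86.8 and 60.2 CPM (-0.94, SE 0.35, adjusted p = 0.672). Acvr2b and Smad6 differed by -0.90 and -0.85. In transport, Steap4 and Hpx, which is the heme carrier hemopexin, were high in fed replicate 1 alone: Steap4 had 35.6, 17.2, 408 and 34.5 CPM and Hpx 104, 41.1, 412 and 106 CPM. Flvcr2 had 30.7, 46.2, 5.28 and 16.8 CPM (1.76, SE 0.64) and Slc25a37, the mitochondrial iron importer, a difference of -0.87.

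The heme list had a median of 0.24, led by Cpox (176, 129, 98.4 and 51.3 CPM; 1.00, SE 0.38), Tmem14c (0.61), Clpx (0.54) and Fech (-0.43). In storage, Fth1, the ferritin heavy chain, differed by 1.20 (SE 0.97), Bach1 by -0.61, Fbxl5 by -0.59 and Ncoa4 by 0.53. The acute phase list had a median of -1.22 over 19 genes, led by Saa2 (-6.62, SE 2.31) and Saa1 (-4.91, SE 2.14), both high in fed replicate 1 alone (346 and 388 CPM). Steap4 (-3.06) and Itih4 (-2.21) followed. The immediate early list had a median of -1.44 over 12 genes, with Egr1 at -1.58, Junb at -1.48, Dusp1 at -1.41 and Jund at -1.29.

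The acute phase state of fed replicate 1 was set beside its hepcidin, since interleukin-6 drives both. Hamp was 237 CPM (95% counting interval 225 to 250) in the cluster led by Saa2 and Saa1, and 215 CPM (205 to 225) in the largest other hepatocyte cluster of that library. Saa1 itself was 1053 CPM in the first and 9.37 CPM in the second. With 1 library there is no replicate check of this pair of values.

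The liver lobule is arranged along the blood flow from the portal vein to the central vein. Hepatocytes were placed along it by a score from 10 pericentral and 10 periportal landmark genes, none of them among the 10 iron genes, and cut into 3 bins of equal size within each library. Nuclei under 1500 UMIs were not scored, which left 4820, 4234, 4342 and 1572 nuclei, and the smallest share was kept in fed replicate 2. Glul, the pericentral glutamine synthetase, had 312 to 508 CPM in the pericentral bin and 8.54 to 20.9 CPM in the periportal bin. It is 1 of the 10 pericentral landmarks, so this separation follows from the score and is no independent check of the bins. UMIs per nucleus also moved along the axis, from 3506, 3910, 3132 and 2681 in the periportal to 4646, 4838, 4163 and 2944 in the pericentral bin.

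Hamp was low at the portal end. Its level was 140, 244, 128 and 379 CPM in the periportal bin, 277, 546, 245 and 506 in the middle bin, and 262, 484, 225 and 403 in the pericentral bin. The order was the same in all 4 libraries: middle highest, periportal lowest. A middle bin above both outer bins in all 4 libraries was found for 0.636% of all genes. The pericentral bin was 1.87, 1.98, 1.76 and 1.06 times the periportal one, and 15.8% of all genes were above in all 4 libraries. The fitted difference was 0.73 on the log2 scale (SE 0.14, edgeR adjusted p = 0.0101). It ranged from 0.63 to 0.91 when each library was left out, and did not pass without fasted replicate 1 (adjusted p = 0.0856) or without fed replicate 1 (0.0890).

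The share of nuclei with a Hamp UMI after thinning to 1500 UMIs had the same order. It was 14.1%, 26.7% and 24.8% from portal to central in fasted replicate 1 and 16.6%, 32.7% and 29.4% in fasted replicate 2. In fed replicate 1 it was 13.7%, 23.4% and 22.5%, and in fed replicate 2 29.6%, 40.1% and 30.2%. Before thinning the shares ran from 20.4% in the periportal bin of fed replicate 1 to 51.9% in the middle bin of fed replicate 2.

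The middle against the mean of the outer bins differed by 0.55 for Hamp (SE 0.12), which did not pass in edgeR (adjusted p = 0.308) and did in DESeq2 (0.000216). In this comparison 0 of 9 genes passed in edgeR, 3 had an unadjusted p under 0.05, and 0.286% of all genes passed (in DESeq2, 1 of the 7 with an adjusted p, and 0.223% of all genes). It also passed with bins cut at the same score in all libraries (0.0234) and without fed replicate 2 (3.52e-08). A finer division into 9 bins, chosen after seeing the data, showed where Hamp turned. From bin 1, at the portal end, Hamp rose from 109 to a peak of 331 CPM in bin 6 of fasted replicate 1, from 212 to 640 in bin 6 of fasted replicate 2, from 119 to 321 in bin 7 of fed replicate 1, and from 281 to 581 in bin 5 of fed replicate 2. In bin 9, at the central vein, it was back at 152, 203, 89.3 and 195 CPM.

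With bins 4 to 6 set against bins 1 and 9, Hamp was higher by 1.22 (SE 0.10, edgeR adjusted p = 2.59e-09). Tfr2 was higher by 0.25 (SE 0.05, edgeR adjusted p = 0.000125) and Trf by 0.22 (SE 0.04, 4.76e-05). The 9 bins were chosen after seeing the data, and this comparison used the same nuclei. Its p-values are therefore no independent test of the Hamp peak. For Hamp, the middle bin against the outer bins, given above, passed in DESeq2 but not in edgeR. For Trf and, in the fasted libraries, Tfr2 the difference came from bin 9. Trf was 1334, 1366, 1248 and 1574 CPM in bin 1 and 878, 880, 914 and 943 in bin 9, and its highest bin was at most 1.09 times bin 1. Tfr2 was 252, 390, 193 and 304 CPM in bin 1 and 200.5, 290, 197 and 225 in bin 9, and its highest bin was 1.02 and 1.04 times bin 1 in the fasted and 1.22 times in both fed libraries, against 2.07 to 3.03 times for Hamp. These are 3 of 9 genes, a count with the same limit, where 5.01% of all genes passed and 3.19% passed as higher. The hepatocyte clusters with Glul, Slc1a2 or Lgr5 among their leading genes, which are genes of the ring around the central vein, had low Hamp. It was 99.4 CPM in fasted replicate 1, 133 in fasted replicate 2, 67.3 in fed replicate 1 and 133 in fed replicate 2, at Glul levels of 937, 1395, 827 and 1369 CPM. Glul, Slc1a2 and Lgr5 are also landmarks of the lobule score, and the clusters were drawn from the same hepatocyte nuclei. These values are therefore no separate observation of the central end. The highest cluster value was 662 CPM, in the cluster of fasted replicate 2 that counted Hamp among its leading genes. That cluster came to 93.2% from this library and its leading genes were ranked on the same counts, so the value gives no lobule position.

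**Figure D4:**
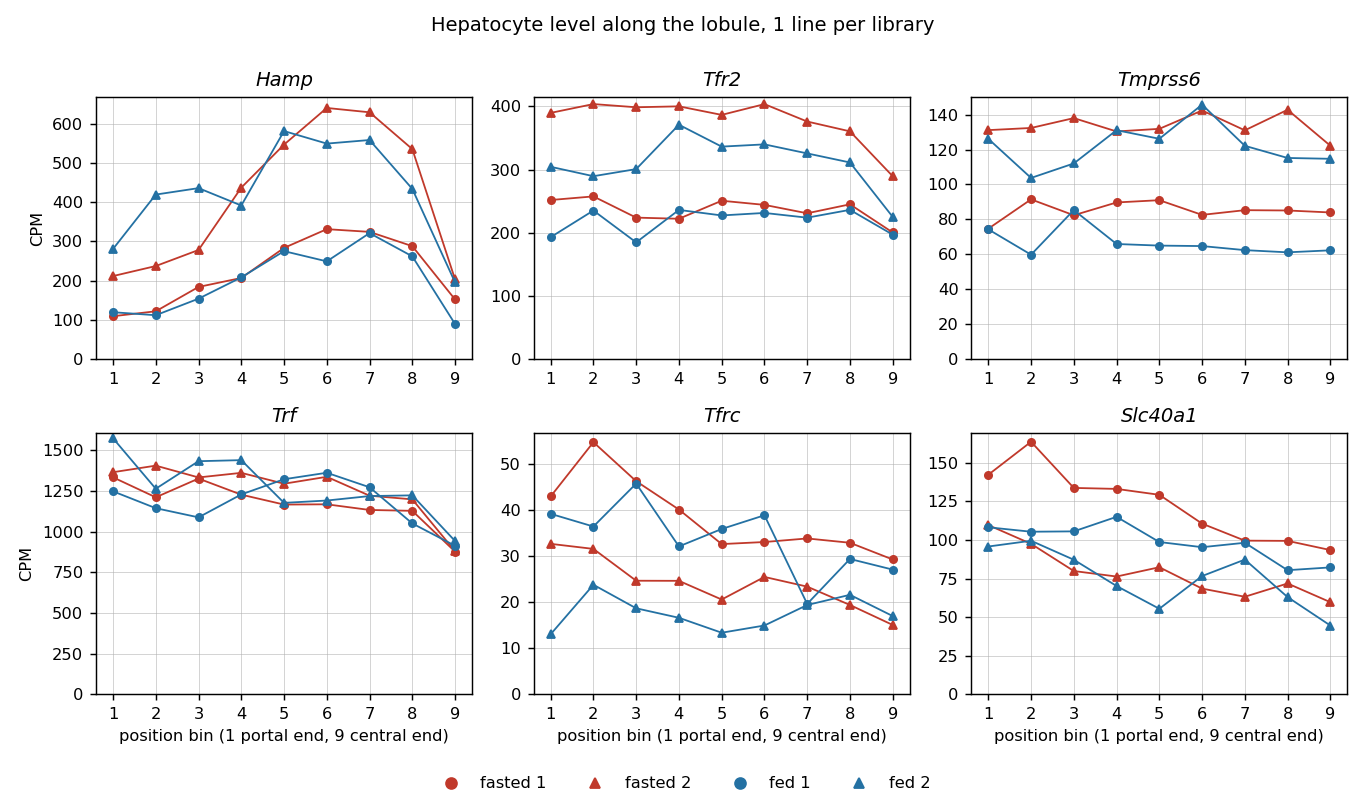
Level in CPM of 6 genes over 9 bins of equal size from the portal (bin 1) to the central end (bin 9) of the lobule score, 1 line per library. Hamp peaks in bins 5 to 7 in all 4 libraries and is low at both ends, while Slc40a1, Tfrc and Trf are lower in bin 9 than in bins 2 and 3.

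Iron export and transferrin had the reverse tilt. Slc40a1 was 146, 94.7, 106 and 94.0 CPM in the periportal bin, 124, 75.4, 103 and 67.5 in the middle bin and 97.7, 65.3, 86.8 and 65.5 in the pericentral bin. Each library fell from portal to central, and the pericentral bin lay below the periportal in all 4, as for 15.6% of all genes. The difference was -0.49 (SE 0.07, edgeR adjusted p = 1.65e-06). Trf was 1292, 1367, 1161 and 1424 CPM in the periportal and 1059, 1124, 1080 and 1137 in the pericentral bin, a difference of -0.26 (SE 0.05, adjusted p = 0.000248). The drop was smallest in fed replicate 1, where the middle bin, at 1307 CPM, was highest.

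Tfrc was 47.9, 29.3, 40.4 and 18.5 CPM in the periportal and 32.2, 19.8, 25.4 and 19.5 in the pericentral bin. It fell by 0.56 on the log2 scale (SE 0.10, edgeR adjusted p = 0.000104), in 3 of the 4 libraries; fed replicate 2 showed no drop. Hamp2 was 0.887, 0.906, 1.32 and 2.85 CPM in the periportal and 1.74, 4.10, 1.99 and 6.48 in the pericentral bin, higher by 1.28 (SE 0.38, adjusted p = 0.0156) on 4 to 28 counts per bin. That call was lost without fasted replicate 2 (0.264) and with bins cut at the same score (0.393).

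The other genes tested did not pass between the end bins. Tfr2 differed by -0.07 (SE 0.06, edgeR adjusted p = 0.437), Tmprss6 by -0.05, Scara5 by -0.04 and Hfe by 0.15. Hfe rested on 2 to 44 counts per bin, and the Scara5 slopes of fasted and fed libraries had opposite signs, as given below. Tfr2 was 244, 398, 205 and 298 CPM in the periportal and 227, 348, 219 and 290 in the pericentral bin. Bmp6 was under the count filter with 0 to 10 counts per bin. In all, 2 of the 9 genes tested were higher and 3 lower in the pericentral bin, where 20% of all 12583 genes passed, 9.78% as higher and 10.3% as lower.

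Endothelial nuclei were placed along the same axis by 4 central and 5 portal landmark genes. Bmp6 had 543, 687, 350 and 298 CPM in the central bin and 576, 609, 413 and 343 in the portal bin, a difference of -0.05 (SE 0.09, edgeR adjusted p = 0.992; 0.803% of genes passed). This score was weak, since scores from alternate landmarks correlated at only 0.135 to 0.190 across nuclei, against 0.569 to 0.626 for hepatocytes. Epas1, a hypoxia-response factor, was the 1 gene of hepcidin signalling that passed, lower in the central bin (-0.41, SE 0.11, adjusted p = 0.0218).

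Among the 25 tested genes of hepcidin signalling, 5 were higher and 5 lower in pericentral than in periportal hepatocytes, beside 9.78% and 10.3% of all genes. The list's median was 0.07 beside -0.01 for all genes. The 5 higher were Id3 (1.20, SE 0.26, edgeR adjusted p = 0.000757), Smad6 (0.81, SE 0.17, 0.000467), Atoh8 (0.61, SE 0.12, 0.000298), Smad7 (0.31) and Neo1 (0.29). Id3, Smad6, Smad7 and Atoh8 are known targets of BMP signalling, and Neo1 encodes neogenin, which binds hemojuvelin. Smad6 was 6.03, 10.1, 4.85 and 24.2 CPM in the periportal bin and 14.7, 16.6, 5.15 and 44.1 in the pericentral bin. Atoh8 was 14.4, 31.7, 6.62 and 42.0 CPM in the periportal and 23.6, 47.9, 15.3 and 42.8 in the pericentral bin. Both were above the periportal value in all 4 libraries, by little in fed replicate 1 for Smad6 and in fed replicate 2 for Atoh8.

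The 5 lower were Id2 (-0.37), another BMP target, Creb3l3 (-0.32), a liver transcription factor, Furin (-0.29), a protease that cleaves hemojuvelin, and Stat3 (-0.24) and Il6ra (-0.19) of the interleukin-6 route. The BMP targets therefore did not all move the same way. Of 20 acute phase genes 0 were higher and 7 lower, and of 11 immediate early genes 0 and 3, beside 9.78% and 10.3% of all genes.

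Of 18 genes of iron and heme transport, 3 were higher and 6 lower. In this comparison 9.78% of all genes were higher and 10.3% lower. Slc48a1, a heme transporter (1.18, SE 0.36, edgeR adjusted p = 0.0181), Slc25a37 (0.68) and Lrp1 (0.21), the hemopexin receptor, were higher. Steap2, a metalloreductase (-1.31, SE 0.26, 0.000362), Hpx (-0.72), the zinc and iron importers Slc39a8 (-0.44) and Slc39a14 (-0.38), haptoglobin, Hp (-0.38), and ceruloplasmin, Cp (-0.35), were lower. Among 11 storage and regulatory genes, Fbxl5, which triggers decay of an iron regulatory protein (0.48), and Nfe2l2 (0.32) were higher and Ftl1, the ferritin light chain (-0.22), lower. Among 11 heme synthesis genes Alad (0.86, SE 0.10, 3.81e-08) and Cpox (0.67) were higher and Clpx (-0.22) lower, with a list median of 0.16.

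**Figure D5:**
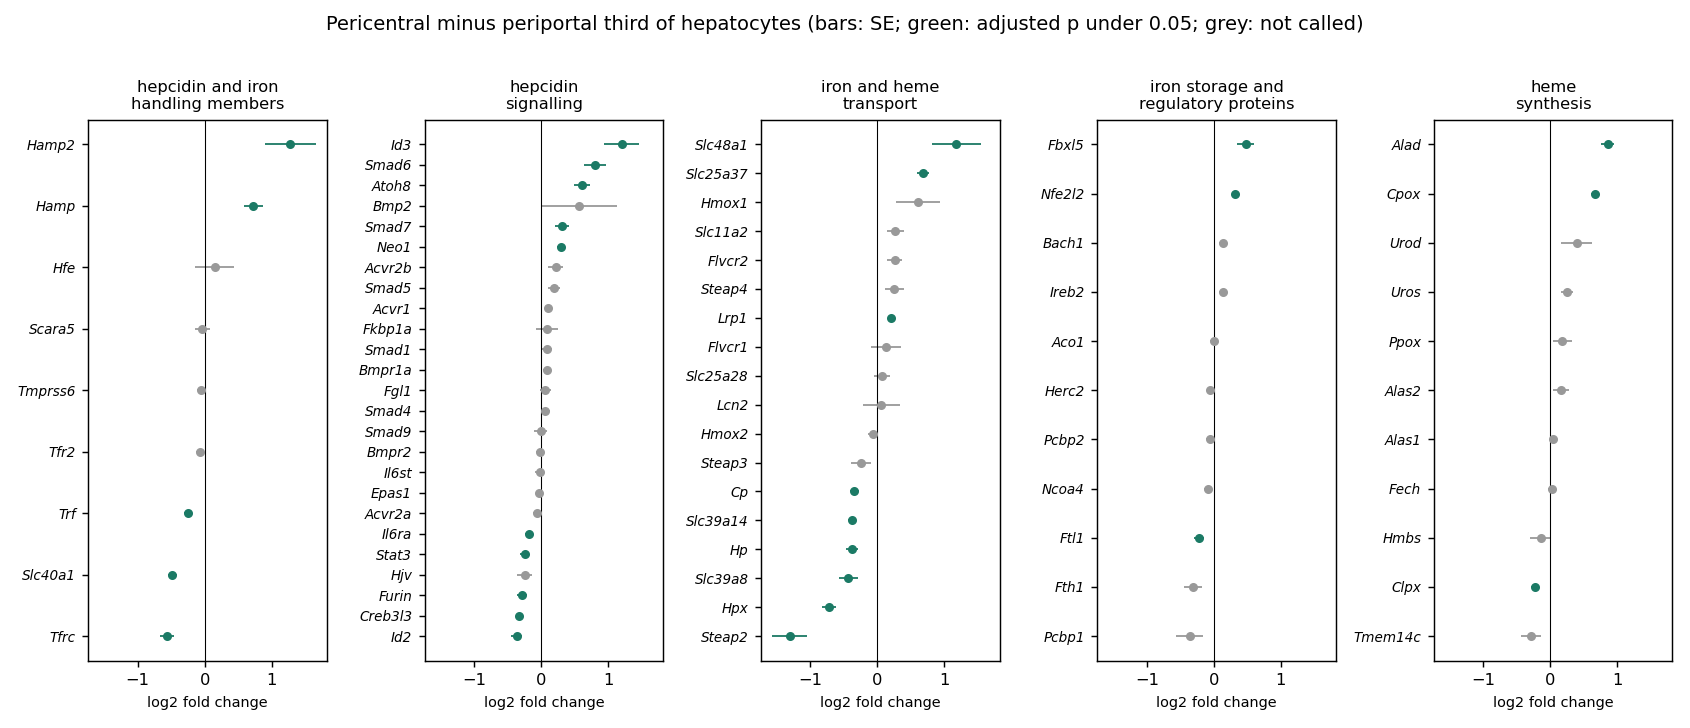
Pericentral minus periportal log2 difference with its SE for the iron genes and for the lists of hepcidin signalling, transport, storage and heme synthesis, with calls at an adjusted p under 0.05 in green. Calls lie on both sides of 0 in each list: Hamp (0.73) and Hamp2 (1.28) are above it, and Slc40a1 (-0.49), Trf (-0.26) and Tfrc (-0.56) below.

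Whether feeding state altered these slopes was tested as an interaction. Of the 9 genes 1 passed, Scara5, where 0.683% of all genes did (0.183% in DESeq2). Its pericentral bin was 1.06 and 1.22 times the periportal one in the fasted libraries and 0.785 and 0.805 times in the fed ones, a difference of 0.51 (SE 0.12, edgeR adjusted p = 0.0286). The call was lost in DESeq2 (adjusted p = 0.449), without fasted replicate 1 (0.265), without fasted replicate 2 (0.924) and without fed replicate 1 (0.342).

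For Hamp the slope difference was 0.47 (SE 0.21, edgeR adjusted p = 0.612). It passed without the count filter (0.000908) and without fed replicate 1 (0.87, adjusted p = 1.67e-07), and had the opposite sign, -0.14, with bins cut at the same score in all libraries. Fed replicate 2, whose Hamp slope was the flattest, also lost the largest share of its nuclei to the UMI minimum, and the part of that loss in the slope was not tested. In the wider lists Steap4 (-0.75, SE 0.16, adjusted p = 0.0132) and Hpx (-0.54, SE 0.13, 0.0292) passed, both of them genes that were high in fed replicate 1. Between fasted and fed libraries the height of the middle bin over the outer ones differed for 0 of 9 genes, with 1 at an unadjusted p under 0.05, in edgeR and for 0 in DESeq2 (0.00795% of all genes in edgeR).

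The genes most like each member were found by the correlation of log2(CPM + 1), given as a description over sums that share libraries and depth. Over 24 sums of library and cell type, Xylb (r = 0.95), Gch1 (0.94) and Rxra (0.94) were nearest to Hamp. Aldh1l1 (0.98), Sdc4 (0.97) and Haao (0.97) were nearest to Tfr2. Plcb4 (0.94), Srgap1 (0.94) and Sema6a (0.92) were nearest to Bmp6, and Tpp2 (0.90), Hltf (0.88) and Slc8a1 (0.88) to Slc40a1. Over the 12 sums of library and lobule bin in hepatocytes, Dcaf11 (0.91), Atoh8 (0.91) and Eif4ebp1 (0.90) were nearest to Hamp.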

How the data were processed

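Single-nucleus RNA of mouse liver was read as the raw UMI counts per gene and barcode that the authors deposited. They were made with Cell Ranger 6.0 on mm10, per the submitters' processing notes. Between 13.2% and 17.0% of the stored entries were 0, and no source says which step left them. Libraries were grouped by their labelled treatment, fasted or fed.

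Nuclei were kept from 500 genes upwards, if mitochondrial counts made up 5% or less. The top Scrublet scores, 0.8% per 1000 barcodes, were removed as doublets (233 to 1108 per library), since the automatic threshold marked 0 or 1 nuclei in 3 libraries. Nuclei were clustered with scanpy 1.11.5 (2000 variable genes, 30 components, leidenalg 0.10.2 at resolution 1) and clusters were named from lists of marker genes, at least 3 detected. The 10 iron genes and the gene lists were left out of the clustering genes, and cell types were rebuilt here.

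Counts were summed per library and cell type or lobule bin and tested with edgeR 4.0.16 in R 4.3.3 (TMM scaling, filterByExpr, robust quasi-likelihood test, Benjamini-Hochberg adjustment over all genes tested, threshold 0.05). Comparisons within libraries had the library as a block. DESeq2 1.42.0 and the other alternatives are given in the closing section. The fits were tested on simulated data. Counting intervals are exact at 95%, a count of 0 was read as allowing 3 counts, and both cover counting error only.

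All 10 genes were named. Of each wider list, the 4 genes with the largest change at a hepatocyte mean of 10 CPM or more were named between fasted and fed. In cell type comparisons, genes were named from the 4 with the largest change past the threshold. Along the lobule those past the threshold were named for the hepcidin signalling, transport, storage and heme lists. The members and lists were chosen with earlier results of these data known. Protein sequences were not used here.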

Additional observations from a re-analysis of the deposited data

Results flagged for a closer look

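Scara5 had a lobule slope that differed between fasted and fed hepatocytes by a test of the difference itself (0.506 on the log2 scale, edgeR adjusted p = 0.0286). Its level was 85.0 and 103 CPM in the periportal bin of the fasted libraries and 89.8 and 126 CPM in the pericentral bin. In the fed libraries it was 232 and 73.3 CPM in the periportal and 182 and 59.0 CPM in the pericentral bin. The call was lost in DESeq2 (adjusted p = 0.449), without fasted replicate 1 (0.265), without fasted replicate 2 (0.924) and without fed replicate 1 (0.342), and kept without fed replicate 2 (0.00228). The cause was not tested.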

How the results depend on the processing

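Between fasted and fed libraries, none of the 10 genes passed in hepatocytes under any alternative run, and the lowest adjusted p was 0.206, without fed replicate 2. The number of genes called in hepatocytes, 1 in edgeR, was 162 in DESeq2, 272 without the count filter, 0 with stored zeros counted as 1, 0 with all nuclei summed, and 3 to 359 when 1 library was left out. DESeq2 called 5, 8, 18 and 7 genes and the fit without the filter 17, 23, 44 and 15 in B and plasma, Kupffer, endothelial and stellate nuclei. RLE scaling called 1 in Kupffer cells and 5 in cholangiocytes. Leaving out 1 library gave 1 to 35 in B and plasma cells, 2 to 8 in Kupffer cells, 0 to 16 in cholangiocytes, 6 to 133 in endothelial and 1 to 51 in stellate nuclei. Each time the lone library of an arm was taken to vary like the others.

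The labels do not say that replicate numbers pair the libraries, and there are only 2 pairs. Deviations of same-numbered libraries correlated at 0.549 in hepatocytes and at 0.131 to 0.387 in the other types. With the replicate block, 20 genes were called in hepatocytes, 7 in B and plasma cells, 112 in Kupffer cells, 29 in cholangiocytes, 155 in endothelial and 50 in stellate nuclei, and none of the 10 genes was among them; Bmp6 in cholangiocytes had -0.17. Fits within libraries already hold the library as a block.

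Signs of small feeding differences turned. Trf had 0.044 without the filter and 0.029 with stored zeros as 1, and with all nuclei summed Hamp had -0.036 and Bmp6 0.84. Leaving out 1 library gave -0.46 to 0.77 for Hamp, -1.03 to 0.13 for Hamp2, -0.24 to 0.53 for Tfr2, -0.23 to 0.76 for Tmprss6, -0.13 to 0.56 for Tfrc, -0.20 to 0.38 for Slc40a1, -0.11 to 0.084 for Trf, -0.48 to 0.63 for Hfe and -1.07 to 0.39 for Scara5. In Kupffer cells Slc40a1 had -0.0029 with RLE scaling and -0.55 to 1.14 with 1 library out, and Bmp6 -0.22 to 7.09. Bmp6 had -0.53 to 1.26 in cholangiocytes and -0.96 to 1.11 in stellate cells, where DESeq2 gave -0.040.

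Against hepatocytes, leaving out 1 library gave 495 to 1736 genes in B and plasma cells, 1781 to 4194 in Kupffer cells, 1574 to 3094 in cholangiocytes and 3054 to 5471 in endothelial nuclei. In B and plasma cells Tfrc then ranged from -0.76 to 0.064 and Scara5 from -0.54 to 0.0094. Slc40a1 in cholangiocytes had -0.0023 without the filter and -0.29 to 0.20 with 1 library out. Differences between types in the feeding effect numbered 0, 2, 1 and 2 genes with RLE scaling in B and plasma, Kupffer, cholangiocyte and stellate nuclei. With 1 library out they numbered 0 to 9, 0 to 30, 0 to 35 and 0 to 94 there, and 1 to 88 in endothelial nuclei.

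Along the lobule, the middle bin comparison called 108 genes without the filter, 56 with landmarks not known to respond to fasting, 542 with 9 bins and 14 to 31 with 1 library out. The slope difference between fasted and fed called 182 without the filter, 23 in DESeq2, 157 with bins cut at the same score, where Hamp had -0.14, and 11 to 305 with 1 library out. The middle bin difference called 0 in DESeq2, 0 with the other landmarks, 7 with the same score and 0 to 12 with 1 library out. Pericentral minus periportal, Scara5 ranged from -0.17 to 0.12, Tmprss6 from -0.081 to 0.0054 and Hfe from -0.064 to 0.31. In endothelial nuclei 32 to 73 genes were called, with Bmp6 at -0.15 to 0.023. The cause of these shifts was not tested. Of the recomputed values of single genes, 620 kept their direction and their side of the threshold, 36 turned sign, 19 lost and 13 gained a call. Depth limits fed replicate 2 most, with a median of 1282 UMIs per hepatocyte nucleus.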

Other observations

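Dendritic cell nuclei were too few in fed replicate 2 (3 nuclei) to be compared, and their Tfrc values are given here as values only. Tfrc, the transferrin receptor for iron uptake, had 210 CPM in fasted replicate 1 (7 counts in 36 nuclei, 95% counting interval 84.4 to 433), 190 CPM in fasted replicate 2 (5 counts in 21 nuclei, 61.6 to 442) and 238 CPM in fed replicate 1 (6 counts in 27 nuclei, 87.2 to 517). Fed replicate 2 had 0 counts, which allows up to 1140 CPM. The same gene stood at 9.57 to 53.7 CPM in Kupffer cells and macrophages. This type was picked out after its values were seen.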
